A study of Rattus norvegicus with 6 samples.

Results

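The 9 genes Umod, Cldn16, Cldn19, Kcnj1, Kcnj10, Slc12a3, Trpm6, Pvalb and Bsnd are known for their expression in the thick ascending limb of the loop of Henle and the distal convoluted tubule. They were taken from a list of these symbols, by matching the accession of each array probe to a gene. Of the 9, 8 had at least 1 probe, and 7 were tested among 32663 gene entries. The tissue was kidney cortex, from male Sprague-Dawley rats bought at 5 weeks of age. The 3 controls received corn oil for 4 weeks, and the other 3 animals received anthraquinone, a tricyclic aromatic quinone, at 1000 mg/kg/day for 4 weeks. Each rat is a replicate, and its total RNA was labelled with Cy3 and read on a separate 1-colour Agilent array, and the comparison asks which genes differ with the compound in this tissue.

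The thick ascending limb takes up sodium, potassium and chloride through an apical cotransporter, returns potassium to the lumen, and lets calcium and magnesium pass between its cells through claudins. The distal convoluted tubule that follows it reabsorbs sodium chloride through the thiazide-sensitive cotransporter and takes up magnesium through an apical channel. In both segments, basolateral potassium and chloride channels hold the membrane potential that drives this transport. Loss of several of these genes causes inherited salt or magnesium wasting.

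No member passed the test. The 7 tested members all had lower fitted values with anthraquinone, from -1.29 for Kcnj10 to -0.034 for Umod on the log2 scale, where Umod's sign turned in 3 refits, and 0 passed limma's moderated test with Benjamini-Hochberg adjustment over all entries at 0.05 (adjusted p from 0.220 to 0.950). Of all entries, 48.4% had a value below 0. Past the adjusted threshold were 9 of 32663 entries (0.0276%), of which 5 were higher (0.0153%) and 4 lower (0.0122%). That count was 2, 1 and 25 without corn oil replicates 1, 2 and 3, and 1, 1 and 4 without anthraquinone replicates 1, 2 and 3. At an unadjusted p under 0.05, 2 members were lower, Kcnj10 and Kcnj1, against 7.65% of all entries, and 0 were higher, against 9.47%. The groups did not overlap in 4 members, Kcnj1, Kcnj10, Slc12a3 and Bsnd, all lower with anthraquinone, and in 10.2% of all entries in that direction. Kcnj10 passed the filter on dim probes only through the corn oil arrays, where it was higher, and without it these counts were 1 and 3 of 6 members. Members and lists were chosen with earlier results of the same arrays known, so their counts are descriptions. The median log2 change was -0.33 over the 7 tested members and -0.30 over the 6 that were well above background on every array, beside 0.0074 over all entries. In whole cortex, fewer cells of a type and less RNA per cell cannot be told apart.

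**Figure D1:**
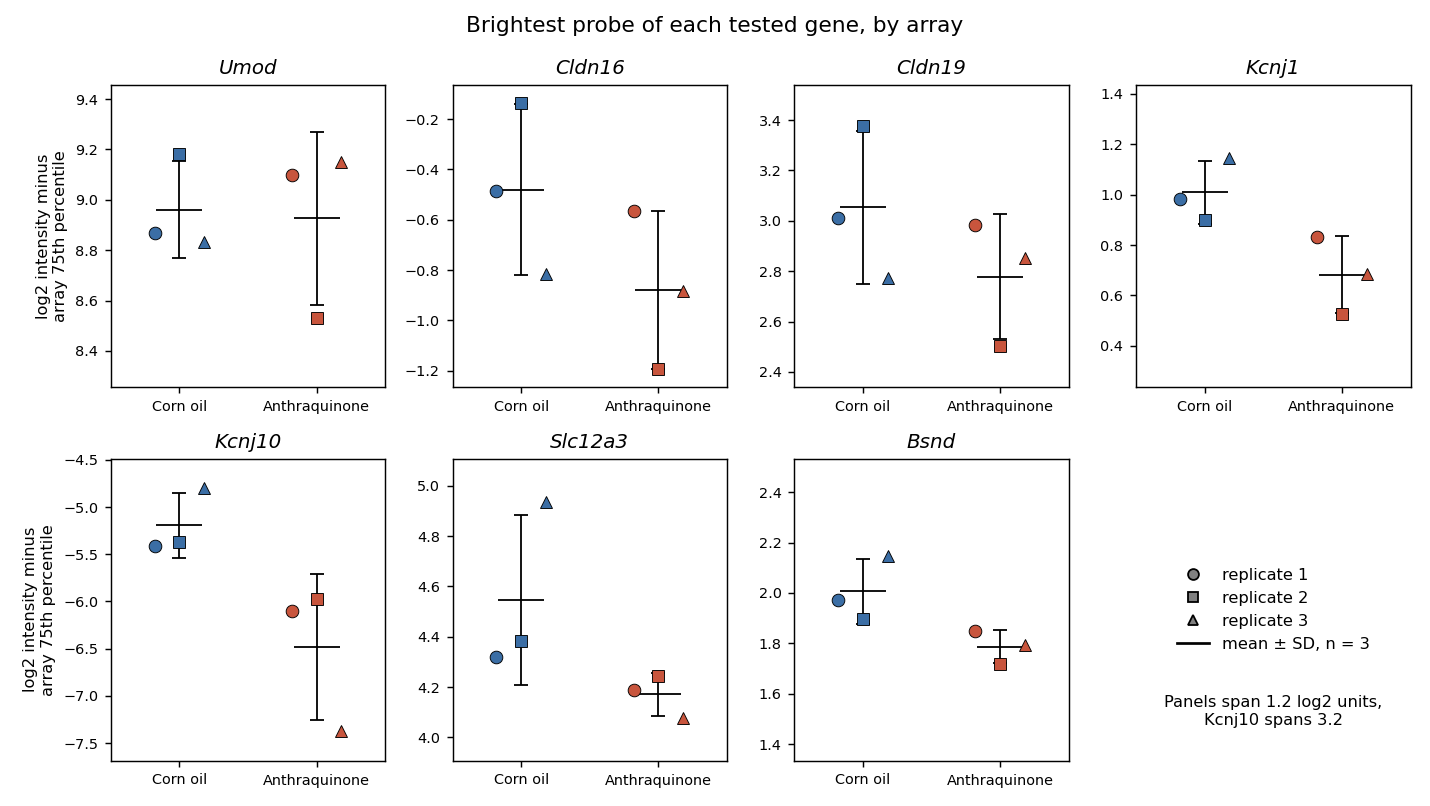
Each panel plots 1 gene's brightest probe as log2 processed intensity minus the array's 75th percentile (y axis) for the 3 corn oil and 3 anthraquinone arrays, with symbols for the replicate number and bars for the mean ± SD. Corn oil and anthraquinone arrays separate for Kcnj1, Kcnj10, Slc12a3 and Bsnd, and overlap for Umod, Cldn16 and Cldn19.

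All values below are the log2 processed intensity of a probe minus the 75th percentile of its array, so that 0 is the level of that percentile, and a difference of 1 is a doubling. Levels of different probes are not comparable, because probes differ in how strongly they bind. Each gene is represented by its brightest probe. Other probes are given beside it for the members, but for only some genes of the comparison lists. The 3 genes below were those whose groups did not overlap and whose probe was well above background on all 6 arrays. The 250 bases before a transcript start are printed from RefSeq on build GRCr8, 5′ to 3′ on the gene's strand, to show the letters that this regulatory window holds. Capitals mark TATAAA, the TATA box that positions transcription, and AGAACA or its reverse complement TGTTCT, the hexamer that steroid hormone receptors recognise.
Kcnj1, chr8:39037742-39037991, plus strand: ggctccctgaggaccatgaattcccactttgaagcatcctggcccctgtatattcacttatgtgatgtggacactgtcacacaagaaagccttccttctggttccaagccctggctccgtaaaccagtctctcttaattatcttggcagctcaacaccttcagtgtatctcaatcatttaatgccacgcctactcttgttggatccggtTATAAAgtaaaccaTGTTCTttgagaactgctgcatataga
Slc12a3, chr19:10675051-10675300, minus strand: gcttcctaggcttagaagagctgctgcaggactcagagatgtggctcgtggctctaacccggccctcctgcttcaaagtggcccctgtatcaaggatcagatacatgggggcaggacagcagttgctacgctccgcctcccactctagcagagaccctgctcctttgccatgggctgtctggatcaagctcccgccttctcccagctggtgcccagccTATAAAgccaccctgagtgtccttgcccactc
Bsnd, chr5:126489390-126489639, minus strand: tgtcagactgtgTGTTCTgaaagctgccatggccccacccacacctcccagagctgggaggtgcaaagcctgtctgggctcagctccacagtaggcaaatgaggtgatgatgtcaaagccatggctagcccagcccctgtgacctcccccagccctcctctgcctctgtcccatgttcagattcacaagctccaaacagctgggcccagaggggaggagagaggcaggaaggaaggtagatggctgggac
For Kcnj1 the table holds 2 starts, of which the first is shown. The TATA box begins 41 bases before the start in Kcnj1 and 32 bases before it in Slc12a3. The steroid receptor hexamer begins 27 bases before the start in Kcnj1 and 238 bases before it in Bsnd, and the printed Slc12a3 window holds none. Searched on both strands in all 33469 such windows of the table, TATAAA was present in 12.9% and AGAACA in 17.5%. The search found AGAACA in 6 of the 9 genes (8 of their 12 windows, some of which overlap) and TATAAA in 3 of the 9. The hexamer GTTAAT, listed as an HNF1 site, was searched as well. It was present in 6.45% of all windows and in 0 of the 12 windows of the 9 genes. A gene with more windows has more chances of a match, so counts of genes are not comparable with shares of windows. Enrichment was not tested. The motifs do not overlap one another in the printed windows. Such matches are letters in a window, and no binding was measured here.

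Umod encodes uromodulin, the glycoprotein that the thick ascending limb secretes as the main protein of normal urine. Its brightest probe stood at 8.87, 9.18 and 8.83 across corn oil replicates 1 to 3 and at 9.10, 8.53 and 9.15 across anthraquinone replicates 1 to 3. The groups overlapped, with anthraquinone replicate 2 the lowest of the 6 arrays and the other anthraquinone arrays inside the corn oil range. The means were 8.96 ± 0.19 and 8.93 ± 0.34 (SD, n = 3 per group), a difference of -0.034 with a 95% interval from -0.50 to 0.44 (limma adjusted p = 0.950). The second probe gave -0.025. No Umod spot was saturated. The direction was not settled. The difference was 0.16 without anthraquinone replicate 2 and 0.08 without corn oil replicate 2, and it was -0.20 after quantile normalization and -0.26 after cyclic loess.

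Cldn16 and Cldn19 encode the claudins that together form the cation-selective pore between thick limb cells through which magnesium and calcium are reabsorbed. Cldn16 stood at -0.49, -0.14 and -0.82 across corn oil replicates 1 to 3 and at -0.56, -1.19 and -0.88 across anthraquinone replicates 1 to 3. The arrays overlapped, since corn oil replicate 3 lay below anthraquinone replicate 1. The spread among the corn oil arrays, 0.68 from lowest to highest, exceeded the difference between groups, which was -0.40 (95% interval from -0.94 to 0.14, limma adjusted p = 0.407). The second Cldn16 probe differed by -0.28. Without corn oil replicate 2 the Cldn16 difference was -0.23, and without anthraquinone replicate 2 it was -0.24.

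Cldn19 had 3 probes with the same order of the corn oil arrays. The brightest stood at 3.01, 3.38 and 2.77 across corn oil replicates 1 to 3 and at 2.98, 2.50 and 2.85 across anthraquinone replicates 1 to 3. As for Cldn16, corn oil replicate 2 was the highest array and anthraquinone replicate 2 the lowest. The difference was -0.28 (95% interval from -0.75 to 0.19, limma adjusted p = 0.50), and the other probes gave -0.33 and -0.32. It was -0.11 without corn oil replicate 2, -0.14 without anthraquinone replicate 2 and -0.42 without corn oil replicate 3.

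Kcnj1 encodes ROMK, the apical potassium channel that recycles potassium for salt uptake in the thick limb and secretes it further along the tubule. Its brightest probe stood at 0.98, 0.90 and 1.15 across corn oil replicates 1 to 3 and at 0.83, 0.53 and 0.69 across anthraquinone replicates 1 to 3. All anthraquinone arrays lay below all corn oil arrays. The means were 1.01 ± 0.12 and 0.68 ± 0.15 (SD, n = 3 per group), or 79.7% of the corn oil level, with a difference of -0.33 (95% interval from -0.60 to -0.06, limma adjusted p = 0.237). The second Kcnj1 probe also separated the groups, at 0.53, 0.63 and 0.63 against 0.33, 0.07 and 0.32, with a difference of -0.36. Kcnj1 ranged from -0.40 to -0.25 over the arrays left out in turn.

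Bsnd encodes barttin, the subunit that the basolateral chloride channels of the thick limb and distal tubule need to reach the membrane. It stood at 1.97, 1.90 and 2.15 across corn oil replicates 1 to 3 and at 1.85, 1.72 and 1.79 across anthraquinone replicates 1 to 3. The groups did not overlap, though the lowest corn oil array and the highest anthraquinone array were close. The means were 2.01 ± 0.13 and 1.79 ± 0.07 (SD, n = 3 per group), with a difference of -0.22 (95% interval from -0.44 to 0.0046, limma adjusted p = 0.299). The second probe, which did not overlap either, gave -0.26.

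Slc12a3 encodes the thiazide-sensitive sodium chloride cotransporter, which defines the distal convoluted tubule. Its brightest probe stood at 4.32, 4.38 and 4.94 across corn oil replicates 1 to 3 and at 4.19, 4.25 and 4.08 across anthraquinone replicates 1 to 3. The groups did not overlap, and corn oil replicate 3 stood above the other corn oil arrays. The means were 4.55 ± 0.34 and 4.17 ± 0.08 (SD, n = 3 per group), or 77.1% of the corn oil level. The difference was -0.38 (95% interval from -0.80 to 0.05, limma adjusted p = 0.331), and it was -0.18 without corn oil replicate 3. The dimmer Slc12a3 probes, whose groups overlapped, differed by -0.30 and -0.14.

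Kcnj10 encodes the Kir4.1 basolateral potassium channel of the distal convoluted tubule, which sets the cell's response to plasma potassium. Its brightest probe lay near the detection limit, well above background on all 3 corn oil arrays and on none of the anthraquinone arrays. It stood at -5.41, -5.37 and -4.80 across corn oil replicates 1 to 3 and at -6.10, -5.97 and -7.38 across anthraquinone replicates 1 to 3. The measured means were -5.19 ± 0.34 and -6.48 ± 0.78 (SD, n = 3 per group), and the fitted difference was -1.29 (95% interval from -2.26 to -0.32, limma adjusted p = 0.220). As the anthraquinone values are only bounds, the 75th percentile scaling gives Kcnj10 as at least 1.12-fold higher in corn oil. That bound rests on corn oil replicate 3, since corn oil replicates 1 and 2 lay below the anthraquinone bound mean of -5.36. For this bound, each anthraquinone array entered at its Kcnj10 value or at its weakest probe called well above background, whichever was higher. After the normexp background correction the difference was -0.15, which is smaller than the bound, and without anthraquinone replicate 3 it was -0.84. The second Kcnj10 probe was not well above background on any array. Kcnj10 passed the filter on dim probes through the corn oil arrays alone, so a lower value with anthraquinone was built into its selection. Kcnj16, whose channel subunit pairs with Kir4.1, had a value of 0.09 (limma adjusted p = 0.695).

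The remaining members gave no comparison. Pvalb, which encodes the calcium-binding protein parvalbumin of the early distal convoluted tubule, was not well above background on any array. Its processed intensity was between 4.83 and 9.48, while the lowest intensity called well above background was between 13.8 and 23.0 across arrays. Trpm6, which encodes the apical magnesium channel, had no probe matched to its symbol and was not analysed here.

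**Figure D2:**
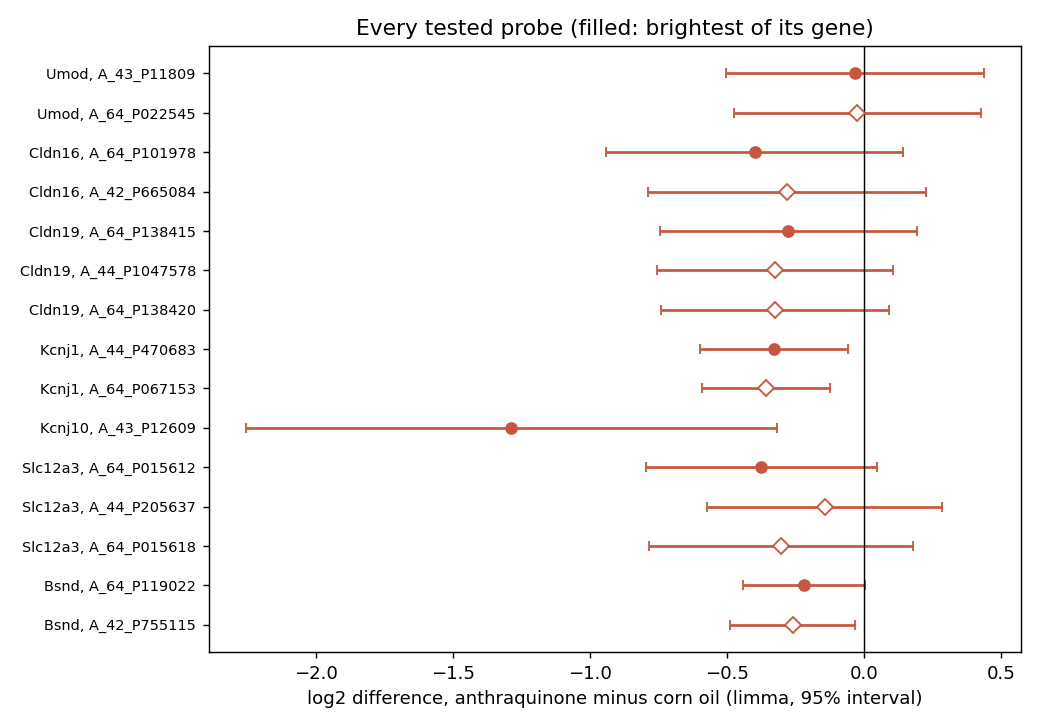
Points give the log2 difference, anthraquinone minus corn oil, for each of the 15 tested probes of the 7 tested genes, with limma's 95% interval as bars; filled points are the brightest probe of each gene. All 15 points lie below 0, and the interval is widest for the dim Kcnj10 probe, from -2.26 to -0.32.

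The members did not share 1 order of the arrays. In all 7 probes of Umod, Cldn16 and Cldn19, corn oil replicate 2 was the highest and corn oil replicate 3 the lowest of the corn oil arrays, and anthraquinone replicate 2 was the lowest of all 6, an order found in 2.98% of all entries. In all 6 tested probes of Slc12a3, Kcnj10 and Bsnd, corn oil replicate 3 was instead the highest of all 6 arrays, which held for 18.7% of entries. The Kcnj1 probes lay between these orders, both lowest in anthraquinone replicate 2. Probes of a gene share its RNA and are not independent, and these orders were noticed after the values were seen. Averaged over the 7 tested members, each centred on its own mean, the deviation was 0.12, 0.26 and 0.25 across corn oil replicates 1 to 3 and -0.02, -0.30 and -0.31 across anthraquinone replicates 1 to 3. In this average, anthraquinone replicate 1 was the treated array nearest to the controls. Kcnj10, near the detection limit, is part of the average and weighs heavily in it. Its brightest probe spanned 1.41 among the anthraquinone arrays, against at most 0.63 for the brightest probes of the other members. No average without Kcnj10 was taken. Among 11821 other named genes, those whose values ran most like this average over the 6 arrays were Lmo2, Tmem45b and Fam81a. Their Pearson r was 0.998, 0.995 and 0.993, given as a description of likeness to an average that includes Kcnj10. They were picked as the highest of 11821 values over 6 arrays, so a high r follows from the selection. Shared regulation was not tested.

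Quantile normalization, which forces all arrays to 1 distribution, gave a median of -0.34 over the tested members and moved Slc12a3 to -0.46, Kcnj10 to -1.17, Bsnd to -0.25 and Kcnj1 to -0.34. No member passed under it. A separate slide and scan held corn oil replicate 1, while slide 2 carried the remaining 5 arrays. With the slide as a block, which uses the arrays of the shared slide, Slc12a3 differed by -0.49 and Umod by -0.08. On the slides, row 1 held corn oil replicates 2 and 3, and row 2 held the remaining 4 arrays. With the row as a block, the treated arrays share a row with a single control, corn oil replicate 1, which is also the array on the separate slide. In that fit Slc12a3 differed by -0.15 and Umod by 0.059, and treatment, slide and scan cannot be told apart.

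**Figure D3:**
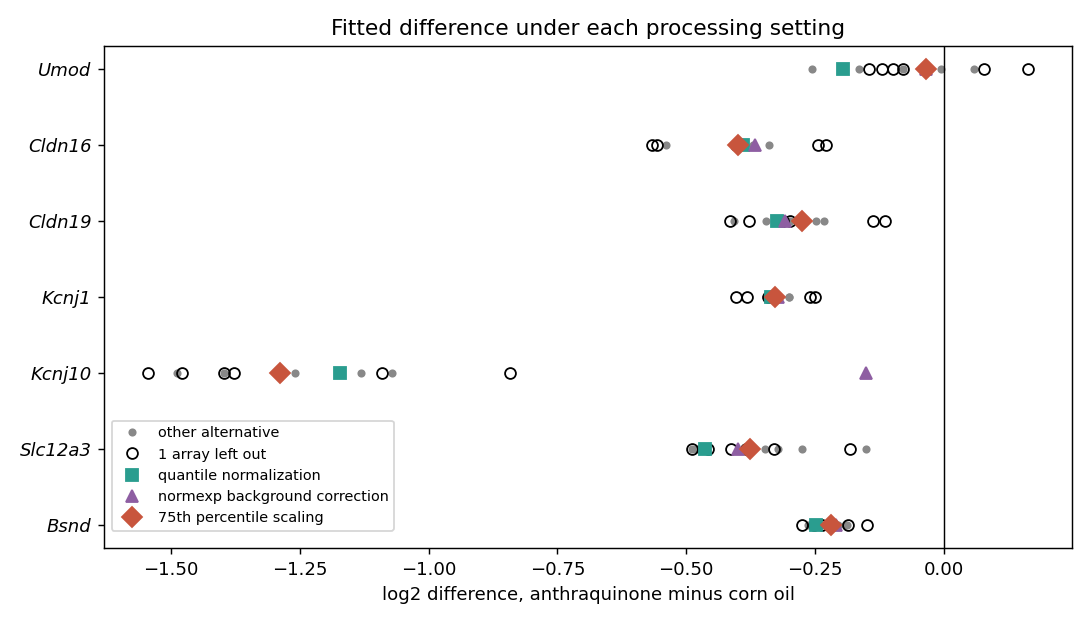
For each tested gene, points give the log2 difference under 75th percentile scaling and under each alternative, with quantile normalization, normexp and the 6 fits without 1 array marked apart. Umod lies on both sides of 0, from -0.26 to 0.16, Kcnj10 moves from -1.29 to -0.15 with normexp, and the other 5 genes stay below 0 in every setting shown.

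Of 22 other genes of the thick limb, 19 were tested, 0 passed over all entries by limma in either direction, and the median was -0.11, with 15 below 0 and 4 above. At an unadjusted p under 0.05, 0 were higher and 2 lower. Egf, the epidermal growth factor precursor gene of this segment, had a value of -0.21 and Casr, which encodes the calcium-sensing receptor, -0.06. The second probe gave -0.29 for Egf and 0.045 for Casr, so the Casr probes disagreed in sign. Cldn14, whose claudin blocks the Cldn16 pore, differed by -0.64 ± 0.16 (SE; adjusted p = 0.196 by limma), and its second probe gave -0.44. Cldn10, which forms the sodium-selective pore of the same segment, had a value of 0.0065. The largest positive value was 0.84 ± 0.42 (SE, limma adjusted p = 0.357) for Ptgs2, a prostaglandin synthase gene of the macula densa, which was well above background on 2 of 3 anthraquinone arrays and 3 of 3 corn oil arrays. The apical cotransporter gene Slc12a1 had no probe matched to its symbol and was not analysed here.

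Of 15 other genes of the distal convoluted and connecting tubule, 12 were tested, 0 passed over all entries by limma, the median was -0.11, and at an unadjusted p under 0.05, 2 were higher and 3 lower. Sall3, counted as higher by its brightest probe at 0.42, had other probes at -0.07 and -0.89. Genes of transcellular calcium uptake differed in sign. Trpv5, the apical calcium channel gene, differed by -0.71 ± 0.23 (SE; adjusted p = 0.225 by limma) and Calb1, which encodes calbindin-D28k, -0.62 ± 0.19 (limma adjusted p = 0.216), while S100g, which encodes calbindin-D9k, had 1.03 ± 0.26 (limma adjusted p = 0.196). In all of these the groups did not overlap, as in 10.2% of all entries in the lower and 15.0% in the higher direction. The sodium-calcium exchanger gene Slc8a1 had -0.15, and its other probes gave -0.23, -0.13 and 0.0065. Ppp1r1b, a phosphatase inhibitor gene, had the most negative value of the list, -0.92 ± 0.40 (SE, limma adjusted p = 0.310).

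Regulators of the cotransporters and of magnesium gave 0 calls as well. Of the 12 genes of the WNK and SPAK kinase pathway, which phosphorylates the sodium chloride cotransporter, 10 were tested, with a median of -0.09 and, at an unadjusted p under 0.05, 0 higher and 1 lower. Wnk1, Wnk4 and Stk39, the kinase genes of this cascade, had values of -0.10, -0.09 and -0.19. The other Wnk1 probes disagreed in sign, at -0.23, 0.093 and 0.0071. Nr3c2, which encodes the mineralocorticoid receptor, had -0.33 ± 0.08 (SE, limma adjusted p = 0.191), and the aldosterone-induced kinase gene Sgk1 had 0.53 ± 0.39 (SE, limma adjusted p = 0.523). Of 17 magnesium-handling genes, 13 were tested, with a median of -0.0091 (-0.081 after quantile normalization, -0.083 after cyclic loess and 0.020 after median scaling) and 1 higher and 1 lower at an unadjusted p under 0.05. Slc41a3, a magnesium transporter gene, had 0.52 ± 0.20 (SE, limma adjusted p = 0.277), Rragd -0.47, Egfr -0.24 and Cnnm2 -0.0091. The sodium pump, which energises transport in every tubule segment, had a median of 0.0039 over 6 tested of 7 genes, whose sign turned with the scaling, to -0.14 after quantile normalization or cyclic loess, and which was 0.10 with the row as a block. Fxyd2, a regulatory subunit gene, had a value of 0.021, while Atp1b1 had 0.24 (limma adjusted p = 0.255) and Fxyd5 -0.11. Klhl3, Nedd4l and Trpm7 had no matched probe and were not analysed here.

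Markers of other cell types show what else the samples held. All 12 proximal tubule markers were tested, as the cortex label implies, with a median of 0.095, the largest value 0.49 for Slc5a12, and a summed scaled signal of 2589 to 2993 in corn oil and 2895 to 3188 in anthraquinone. Thin limb and medulla markers summed to 9.76 to 11.3 in corn oil and 8.99 to 10.9 in anthraquinone, with 7 of 7 tested and a median of -0.084. Principal cell markers had a median of -0.43 over 8 tested of 9 and sums of 165 to 193 and 139 to 174. Their largest value was that of Scnn1b, -0.72 (limma adjusted p = 0.108), while Aqp3 had 0.46 (limma adjusted p = 0.191) and Scnn1a 0.18, both named after their values were seen. Podocyte markers had a median of -0.10 over 8 of 8, with Cdkn1c at -0.45, and their sums did not overlap, 41.6 to 44.0 in corn oil and 37.2 to 39.6 in anthraquinone. The sums of the other thick limb genes did not overlap either, 402 to 429 in corn oil and 372 to 390 in anthraquinone. Sums of the remaining lists, the members included, overlapped. How often sums of such lists separate was not tested. Intercalated cell markers had a median of -0.02 over 10 of 10, with Slc4a1 at 0.35 and sums of 150.1 to 157 and 137 to 164. Endothelial markers had a median of 0.03 over 8 of 8, with Ehd3 at 0.28, and leukocyte markers -0.16 over 7 of 8, with Itgam, well above background on 1 of 3 anthraquinone arrays, at -0.56. Stromal and smooth muscle markers had a median of -0.02 over 8 of 8, with Pdgfrb at 0.36. Skeletal muscle markers had a median of -0.02 over 4 of 7, with Ckm at -0.38, and adipose markers -0.11 over 3 of 5, with Ucp1 at 0.44. In these marker lists 0 genes passed over all entries. The part of cell makeup in the members' values was not tested. Per array, 68.7 to 70.7% of probes were well above background in corn oil and 64.2 to 66.1% in anthraquinone. Correlations between arrays were 0.991 to 0.994 within a group and 0.988 to 0.993 between groups. They were taken across entries, which are not independent replicates.

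**Figure D4:**
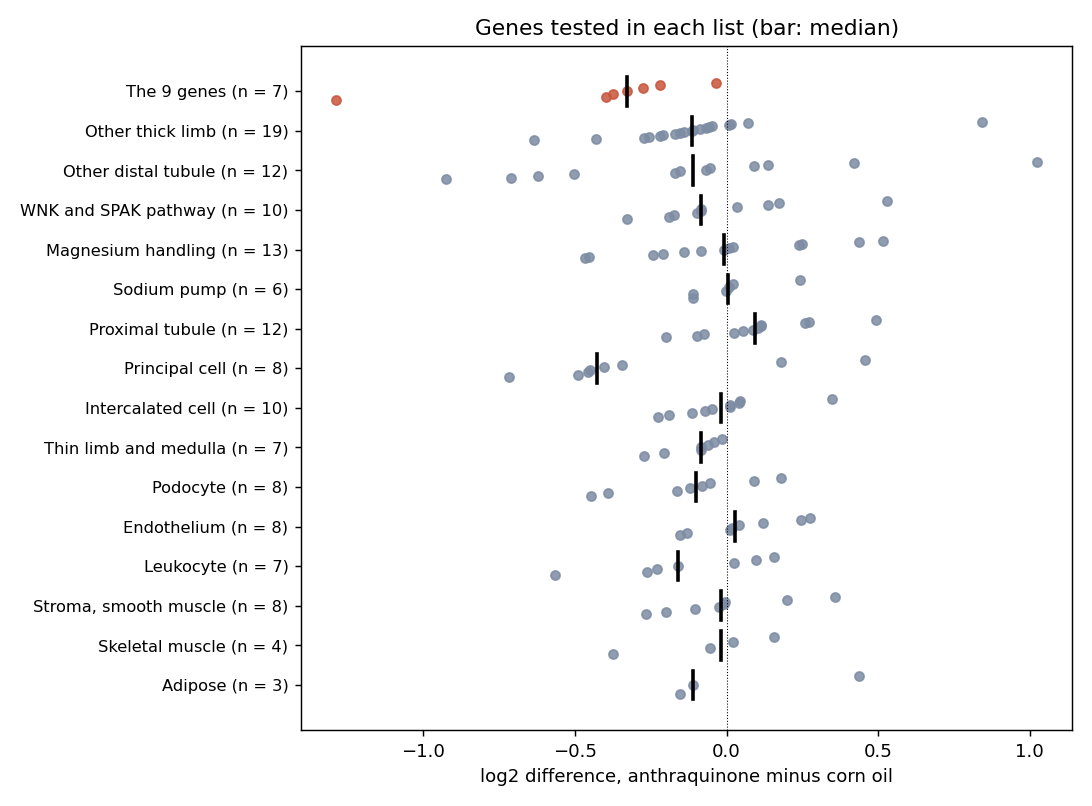
Each point is 1 tested gene, placed by its log2 difference, anthraquinone minus corn oil, with the lists as rows and a bar at each median. The 7 tested members lie at or below -0.03 with a median of -0.33, the principal cell markers have a median of -0.43, and the other lists have medians between -0.16 and 0.09.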

How the data were processed

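The deposited scanner files hold a processed linear intensity per spot which the file headers credit to Feature Extraction version 10.7.1.1 by Agilent (10.7 per the submitters' processing notes), with outlier and background flags. The correction steps behind it are not given in the sources used here. The authors' value table of intensity matched those values divided by each array's 75th percentile, within 0.01 log2 for 90.7 to 97.0% of probes. No header states its scale. Its column medians were 0.109 to 0.114.

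The log2 intensity minus each array's 75th percentile (844 to 1191) was used, without flagged spots (2 to 13 per array). A probe entered if either group had it well above background throughout. Accessions without version were matched to RefSeq symbols of rat assembly GRCr8 (27460 of 61657 probes). The arrays were designed on another build. Groups came from the sample titles. They were compared in limma 3.58.1 under R 4.3.3 with lmFit and eBayes. The steps were also run on simulated data, and no result given here rests on that run. The number of arrays limits the precision, and p-values measure the spread between these 3 animals per group. Members and lists were chosen with earlier results of these data known. Named are all members, a set of thick limb and distal tubule genes whatever their result, the largest changes of each list, and the 3 genes most like the members' mean. Some results that this rule names are not reported here. Normexp used median spot signals, as the columns read here hold no means. Alternatives were other scalings, filters, probe rules, variance models, blocks, thresholds, the value table and each array left out.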

Additional observations from a re-analysis of the deposited data

How the results depend on the processing

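No member passed at an adjusted p under 0.05 in any of 20 refits, nor at 0.1 with nothing else changed. The slide block and the fit without corn oil replicate 1 gave the same estimates, so these 20 are not all separate checks. The median of the tested members ranged from -0.35 to -0.23 over the refits with all arrays and from -0.38 to -0.24 with each array left out. At an unadjusted p under 0.05, 2 members were called. Of single members, Umod changed sign, to 0.059 with the row as a block, and its range with each array left out was -0.15 to 0.16 (0.08 without corn oil replicate 2). The other 6 kept their sign in all refits that gave a value. Kcnj10 gave none when probes had to be well above background on all 6 arrays.

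The count over all entries, 9, was 16 with normexp, 14 with each probe as its own entry, 81 with trend and robust variance, 2 with the slide as a block, 1 with the row as a block and 54 at an adjusted p under 0.1. It was 1 to 25 with each array left out, 5594 at an unadjusted p under 0.05 and 6611 without the filter on dim probes. Without that filter 2 genes of the comparison lists passed, Pou3f3 (-0.43) and Kcna1 (0.60). The replicate block gave 1 call and changed no call of a member. The deviations of same-numbered arrays from their group had correlations of 0.03, -0.06 and -0.01 across entries, so no shared deviation was seen. With so few arrays per group, these values cannot decide whether the numbers paired the animals. The cause of the shifts in the count was not tested. Signal over background limits Kcnj10 and Pvalb.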

Other observations

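Regulators of the distal nephron outside the 9 genes showed probes of unequal size. All 3 tested probes of Nr3c2, the mineralocorticoid receptor gene, had lower values with anthraquinone, -0.33 ± 0.08, -0.46 ± 0.42 and -0.69 ± 0.10 (SE), and none passed with each probe as its own entry. Both probes of Pou3f3, a transcription factor gene of the thick limb lineage, had lower values, -0.43 and -0.29. Its groups did not overlap on either, as in 10.2% of all entries in that direction. Neither probe passed with each probe as its own entry (limma adjusted p = 0.180 and 0.273). The 3 probes of Sall3, a transcription factor gene, disagreed in sign, at 0.42, -0.07 and -0.89. These genes were singled out after their values were seen.

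Without the filter on dim probes, 6053 entries were called higher and 558 lower by limma, while 5 were higher and 4 lower with it. Of the 16818 entries that the filter had left out, 5723 were called higher and 170 lower, with a median log2 change of 0.43. The lowest normalized level called well above background was between -6.03 and -5.81 on corn oil arrays and between -5.49 and -5.24 on anthraquinone arrays.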
